A study of Mus musculus with 96 samples.

Results

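Open poised enhancers were the regions of the GATA6 binding table whose histone state was given as poised enhancer and whose accessibility before induction was given as accessible or moderate. There were 4008 of them, 9.45% of the 42403 GATA6 binding regions, and 3796 were of moderate accessibility and 212 accessible. The remaining 2177 poised enhancers were closed before induction, and served with 3494 open primed enhancers and 4597 open active enhancers as groups for comparison. The histone state came from published ES cell profiles and was not measured in these cultures.

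Enhancers are stretches of DNA, often far from the genes they act on, where transcription factors gather to change transcription. Poised enhancers carry H3K4me1, a mark of enhancers in general, together with H3K27me3, the mark laid down by Polycomb repressive complex 2, and lack the acetylation of H3K27 that goes with activity. In ES cells they are known from genes of embryonic development that are silent in pluripotency and switched on in particular lineages. GATA6 is a zinc finger factor that recognises GATA sequences and directs ES cells toward primitive endoderm (PrE), the lineage of the yolk sac. SOX17 is an endoderm factor of the SOX family, while OCT4, SOX2 and ESRRB are pluripotency transcription factors (PTFs).

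The assay was ChIP-seq: chromatin was crosslinked, an antibody pulled down the factor with its DNA, and that DNA was sequenced. The cells were KH2 mouse ES cells, of a C57BL/6 x 129/Sv background, with a single-copy Gata6 transgene tagged with HA and induced by doxycycline (Dox, 1 ug/mL), grown with LIF on inactivated mouse embryonic fibroblasts. All 5 factors and input chromatin were profiled in untreated cells and after 8 h, 16 h, 24 h (day 1), 48 h (day 2) and 96 h (day 4) of Dox, and in untreated XEN cells, an extra-embryonic endoderm line (X10) cultured without LIF, except that ESRRB had no XEN column. GATA6 and SOX17 were also profiled in clone G6.3 at 48 h of Dox with siRNA against Oct4 or control siRNA, which was a single clone. Each of the 45 conditions used has 1 value per region, in reads scaled to library size (RPM), in which 1 to 3 libraries were pooled. The pooled values used here give no spread between replicates, so no difference between conditions was tested, and ranges and intervals describe the regions, not the cultures. In 40 columns the low values were whole multiples of 1 or 2 read steps. These gave depths of 5.42 to 69.4 M reads with a median of 15.3 M. The columns that did not were SOX17, OCT4, SOX2, ESRRB and input before Dox, from which the changes of these factors start. Their depths, and how their libraries were pooled, could not be read from the values. GATA6 before Dox rested on 1 library of 6.12 M reads. A step of 1 read was worth 0.163 RPM there, and the median open poised enhancer lay at 3 steps. OCT4 in XEN cells also rested on 1 library, of 7.5 M reads. There, 1 read was worth 0.133 RPM and the median open poised enhancer lay at 4 steps. No value in any of the 45 columns was 0. Whether 1 read was added per region before scaling is not stated in the sources used here, so these steps may exceed the reads.

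The authors searched each region for 4 sequence patterns, and 3 sets of best matches are shown here because they sit at regions described below. The first set holds the best GATA6 match of the regions near Klf5 (chr14:99331568-99331608, minus strand), Id1 (chr2:152739979-152740019, minus strand) and Tle3 (chr9:61574099-61574139, minus strand), of which the first held GATA6 into XEN cells, the second was highest late and the last was lowest late. Coordinates are of mm10, sequences run 5′ to 3′ on the strand given with 14 bases on either side, and capitals mark the match.
Klf5 GATA6 match: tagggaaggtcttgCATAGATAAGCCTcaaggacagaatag
Id1 GATA6 match: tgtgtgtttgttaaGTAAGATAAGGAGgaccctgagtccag
Tle3 GATA6 match: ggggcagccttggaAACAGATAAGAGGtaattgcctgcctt

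The second set holds the best SOX17 match of regions where SOX17 was high at day 4, near Ntn5 (chr7:45680098-45680134, plus strand) and Cmtm4 (chr8:104397239-104397275, minus strand). Both regions hold no GATA6 match.
Ntn5 SOX17 match: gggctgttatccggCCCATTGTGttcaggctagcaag
Cmtm4 SOX17 match: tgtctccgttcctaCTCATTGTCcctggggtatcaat

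The third set holds the best OCT:SOX match, the composite site that OCT4 and SOX2 occupy side by side, of regions that were bound by PTFs before Dox. These lie near Dll1 (chr17:15380814-15380856, minus strand), Rpl38 (chr11:114580176-114580218, minus strand), Arhgef10 (chr8:14923076-14923118, minus strand) and Zfp36l1 (chr12:80010414-80010456, plus strand), and their scores of 18.6, 14.7, 13.7 and 13.1 were all of the high class.
Dll1 OCT:SOX match: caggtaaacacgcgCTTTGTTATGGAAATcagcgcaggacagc
Rpl38 OCT:SOX match: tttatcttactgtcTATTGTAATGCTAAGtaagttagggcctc
Arhgef10 OCT:SOX match: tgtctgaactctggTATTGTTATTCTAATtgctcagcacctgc
Zfp36l1 OCT:SOX match: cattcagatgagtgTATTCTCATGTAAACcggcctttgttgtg

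A GATA6 match of any class was held by 84.0% of open poised enhancers and 89.7% of all regions, and one of the high or mid class by 49.8% (Wilson 95% interval 48.3% to 51.3%) and 59.8%. Closed poised enhancers had high or mid GATA6 matches at 61.2%, open primed enhancers at 52.8% and open active enhancers at 48.9%. The 1984 full-length high or mid matches of open poised enhancers shared a core of GATAA, followed by G in 82.1%. The least frequent letter of this core was present in 96.5% of matches. Matches were scored against a GATA6 pattern, so the core follows from how they were chosen. The best match lay a median of 47 bp from the GATA6 summit, and 52.0% were within 50 bp. High or mid OCT:SOX matches were present in 18% of open poised enhancers, against 11.6% of closed poised, 35% of open primed and 20.3% of all regions. The corresponding shares were 35.9% and 42.6% for SOX17, and 21.6% and 22.5% for ESRRB, in open poised enhancers and in all regions.

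By sequence and position, open poised enhancers were richer in CpG than the whole table. GC content was 49.6% against 45.2% of all regions, CpG density 14.8 against 9.68 per kb, and the ratio of observed to expected CpG 0.245 against 0.195. The closed poised enhancers were similar, with 13.8 CpG per kb, while open primed enhancers had 7.74. Open active enhancers were nearer, with 12 CpG per kb and a GC content of 47.8%. The median distance to the nearest transcription start site of a protein-coding gene was 16544 bp, against 25683 bp over all regions. It was 29838 bp for open primed enhancers but 17020 bp for open active ones, close to that of open poised enhancers. Introns held 49.4% of the open poised enhancers, intergenic sequence 46.5%, UTR exons 2.54% and coding exons 1.55%, and 7.61% were within 1 kb of a start site. The median width was 490 bp, from 172 to 3553 bp, and RPM per region grows with width. The marks themselves were not analysed here, so the label could be set only against position and CpG content.

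GATA6 came early to open poised enhancers and was lower from then on. In the order before Dox, 8 h, 16 h, day 1, day 2, day 4, XEN, the median GATA6 level per region was 0.490, 1.92, 1.80, 1.38, 1.07, 1.03 and 0.936 RPM. Series of 7 values below keep this order. Over all regions the same medians were 0.490, 1.49, 1.45, 1.29, 1.13, 1.29 and 1.34 RPM. The open poised enhancers thus had the higher median per region at 8 h and the lower one from day 2 on. Per kb, their median was 2.26 RPM at day 2, against 2.23 over all regions. At day 4 it was 2.12 against 2.68 RPM per kb, so per kb they were lower from day 4 on. Input at the same regions stayed between 0.464 and 0.616 RPM. In bulk cultures, fewer cells with a bound region and less binding per cell cannot be told apart.

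Changes per region were differences of log2(RPM + pseudocount), with a pseudocount of 0.193 for GATA6, and a change of at least 2-fold was counted. From before Dox to 8 h, the median change was 1.66 on the log2 scale against 1.38 over all regions, and 2947 open poised enhancers (73.5%) gained at least 2-fold, against 60.4% of all regions. From 8 h to day 4, the median change was -0.95 against -0.02, with 1945 (48.5%) at least 2-fold lower, against 34.8%, and 607 (15.1%) at least 2-fold higher, against 30.9%. Open primed and open active enhancers had larger falls over these times, with medians of -1.58 and -1.32, while closed poised enhancers had a median of 0.17. The open poised enhancers therefore lay between the closed poised and the other open enhancers. From day 4 to XEN cells, 377 (9.41%) were at least 2-fold higher and 350 (8.73%) at least 2-fold lower, against 14.4% and 11.7% of all regions.

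**Figure D1:**
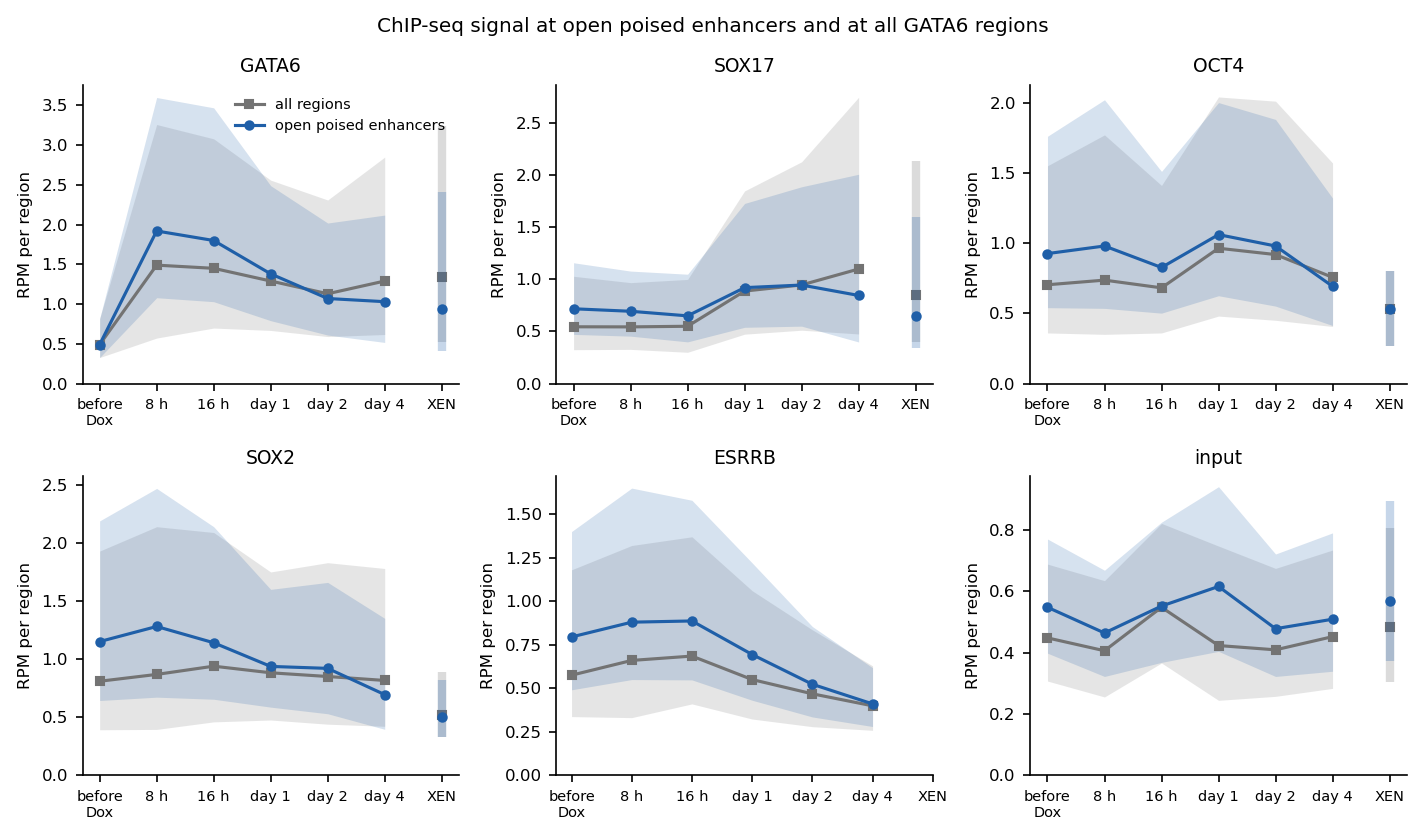
Median signal per region in RPM (y axis, linear from 0) before Dox, at 8 h, 16 h, day 1, day 2, day 4 and in XEN cells (x axis, not to scale) for GATA6, SOX17, OCT4, SOX2, ESRRB and input, at the 4008 open poised enhancers (blue circles) and all 42403 regions (grey squares). Shaded bands and the bars at XEN span the quartiles over regions, ESRRB has no XEN value, and the GATA6 median at open poised enhancers is highest at 8 h, at 1.92 RPM.

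The authors grouped all regions by their GATA6 course, so the class of a region was built from the values above, and its GATA6 levels are a description. Transient sites, bound early and then lost, made up 2378 open poised enhancers (59.3%, Wilson 95% interval 57.8% to 60.8%), against 38.4% of all regions. Late sites were 836 (20.9%, against 33.6%) and Early&Constant sites 794 (19.8%, against 28.0%). The Transient share of open primed and open active enhancers was 59.4% and 61.5%, and that of closed poised enhancers 39.8%.

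Transient open poised enhancers had median GATA6 levels of 0.490, 2.16, 1.86, 1.28, 0.894, 0.620 and 0.499 RPM from before Dox through day 4 to XEN cells, which ended near the starting level. Early&Constant ones had 0.653, 3.69, 4.41, 3.81, 3.27, 3.58 and 3.91 RPM. Late ones had 0.327, 0.666, 0.868, 0.849, 0.847, 1.58 and 2.25 RPM, with most of the gain after day 2. Widths differed, with medians of 471, 739 and 370 bp in the Transient, Early&Constant and Late classes. Per kb of region, the median GATA6 level at 8 h was 4.62, 5.1 and 1.68 RPM in the same order, and in XEN cells 0.987, 5.58 and 6.23 RPM per kb, so that Late sites were above Early&Constant ones there.

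Among Early&Constant open poised enhancers 67.0% held a high or mid GATA6 match, against 50.3% of Transient sites and 32.2% of Late sites. The share of Early&Constant sites was 7.97% among the 640 regions without a GATA6 match, 15.4% with a low, 25.9% with a mid and 27.6% with a high match, while the Late share went from 34.5% to 10.2% over the same order. Transient sites were 57.5%, 59.4%, 58.1% and 62.2%, and so varied little with the match. Median width also rose over these match classes, from 343 bp without a match to 630.5 bp with a high one, and the part of width in these shares was not tested.

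**Figure D2:**
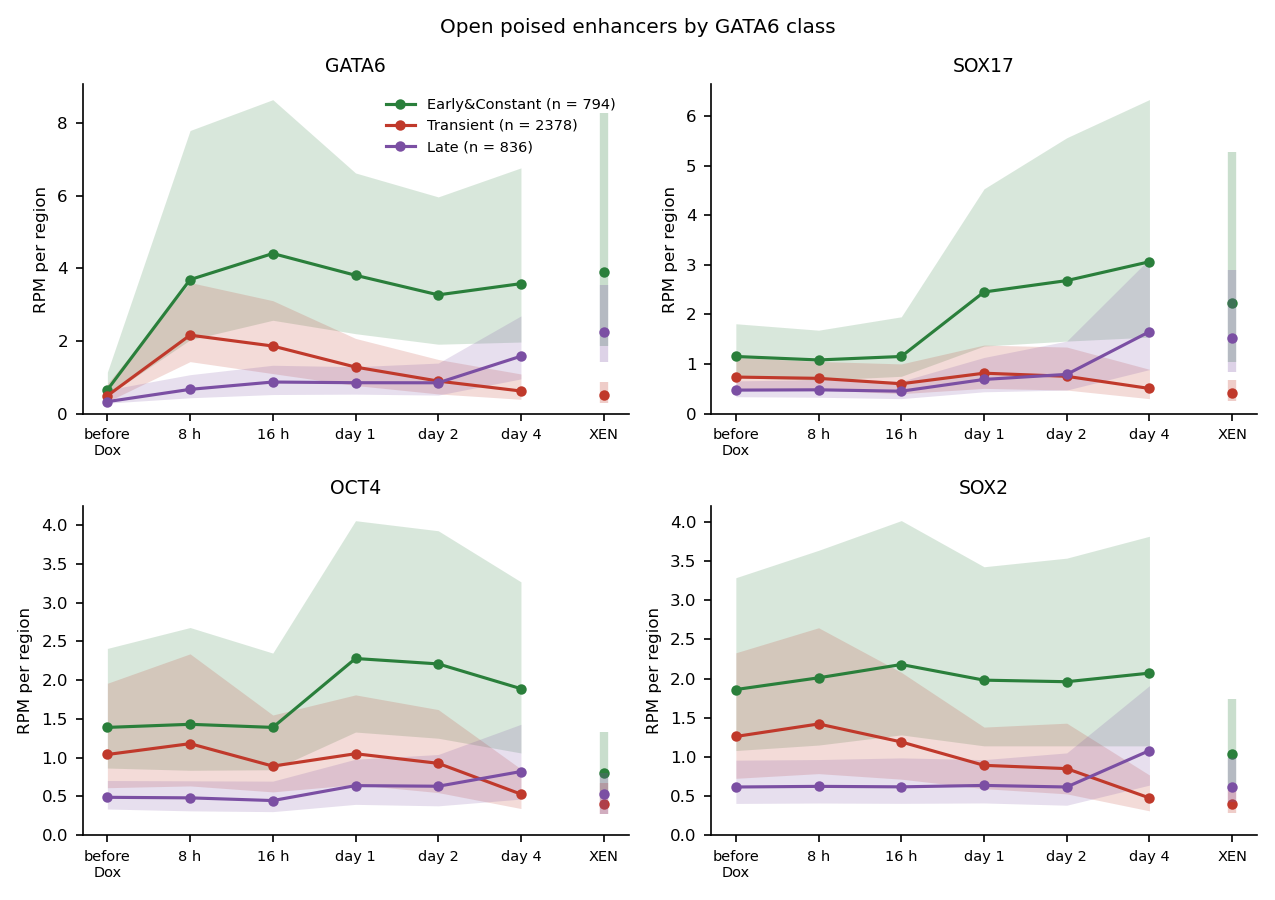
Median signal per region in RPM (y axis, linear from 0) for GATA6, SOX17, OCT4 and SOX2 by condition (x axis, not to scale), at 2378 Transient (red), 794 Early&Constant (green) and 836 Late (purple) open poised enhancers. Shaded bands and the bars at XEN span the quartiles over regions; Transient sites have the lowest medians of all 4 factors at day 4.

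SOX17 gain was rarer at open poised enhancers than over all regions, and more common than at open primed or open active ones. Its median levels were 0.718, 0.694, 0.650, 0.921, 0.946, 0.846 and 0.652 RPM, while over all regions it was 0.545 RPM before Dox and 1.10 at day 4. From before Dox to day 4, 1188 (29.6%) gained at least 2-fold, against 44.5% of all regions. The signal was at least 2-fold lower at 540 (13.5%), against 8.72%. Closed poised enhancers gained at least 2-fold at 44.1%, open primed at 25.4% and open active at 25.8%, so open poised enhancers lay in between. At least 2-fold lower were 2.71%, 27.4% and 26.3% in the same order. With a pseudocount of 0.192, the median change was 0.21 on the log2 scale against 0.79 over all regions, and relative to all regions it turned to -0.58. Before Dox, the SOX17 level across the 4008 regions followed that of SOX2, with a Spearman's rho of 0.889, or 0.766 per kb, and that of input with 0.769, or 0.0987 per kb. These regions share width and base composition in all assays. The paper reports that GATA6 activates Sox17 expression after induction, and what the SOX17 signal before Dox stands for was not tested.

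SOX17-bound regions, a class from peak calls in the same assay, were 1390 of the open poised enhancers (34.7%, against 44.5% of all regions). They were 74.4% of Early&Constant, 53.9% of Late and 14.6% of Transient sites. In Early&Constant sites, the SOX17 medians were 1.15, 1.08, 1.15, 2.45, 2.68, 3.06 and 2.22 RPM from before Dox through day 4 to XEN cells. In Late sites they were 0.472, 0.478, 0.45, 0.687, 0.789, 1.65 and 1.53 RPM. In Transient sites they were 0.735, 0.709, 0.600, 0.813, 0.750, 0.505 and 0.411 RPM. The first 2 classes were thus above their starting level at day 4 and the Transient class below it. By SOX17 match, the SOX17-bound share was 19.0% of regions without a SOX17 match, 34.7% with a low, 49.3% with a mid and 54.0% with a high match. Median width rose over the same match classes, at 408, 517, 571 and 607 bp, and the part of width in these shares was not tested. The best SOX17 match lay a median of 85 bp from the GATA6 summit in SOX17-bound and 114 bp in unbound regions. These distances were 75 and 120 bp in Transient, 60 and 72 bp in Late, and 139 and 130 bp in Early&Constant sites, the last in the opposite order.

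The PTFs were lower at day 4 than before Dox. The OCT4 medians were 0.925, 0.979, 0.826, 1.06, 0.979, 0.692 and 0.533 RPM. SOX2 medians were 1.15, 1.28, 1.14, 0.936, 0.919, 0.693 and 0.496 RPM in the same order, and those of ESRRB 0.794, 0.879, 0.886, 0.693, 0.522 and 0.409 RPM up to day 4. Input in XEN cells was 0.567 RPM, and the OCT4 and SOX2 medians there were no higher. OCT4 stayed near its first level through day 2, while SOX2 and ESRRB were lower from day 1.

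From before Dox to day 4, OCT4 was at least 2-fold lower at 991 open poised enhancers (24.7%, against 19.4% of all regions) and at least 2-fold higher at 422 (10.5%, against 21.0%). SOX2 was at least 2-fold lower at 1319 (32.9%, against 24.1%) and at least 2-fold higher at 423 (10.6%, against 24.0%). ESRRB was at least 2-fold lower at 1421 (35.5%, against 25.2%) and at least 2-fold higher at 3 (0.0749%, against 0.248%). The median changes of OCT4, SOX2 and ESRRB were -0.23, -0.45 and -0.70 on the log2 scale, against 0.16, 0.10 and -0.40 over all regions. Pseudocounts were 0.167, 0.195 and 0.164 RPM for these assays. Open primed and open active enhancers fell further, with OCT4 medians of -1.0 and -0.80 and SOX2 medians of -1.40 and -1.31.

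PTF classes came from peak calls in the same assays, so the PTF levels of a class are a description. In these classes, 904 open poised enhancers (22.6%, Wilson 95% interval 21.3% to 23.9%) were bound by PTFs before Dox, 520 (13%) were of the ectopic PTF class, bound by PTFs only after induction, and 2584 (64.5%) had no PTF peak. Over all regions the shares were 20.8%, 16.6% and 62.6%. The PTF-bound share before Dox was 54.5% in open primed and 59.4% in open active enhancers, and 3.95% in closed poised ones, so open poised enhancers were again in between. Regions bound before Dox held a high or mid OCT:SOX match in 44.6% of cases, ectopic ones in 12.7% and those with no PTF in 9.75%. In the other direction, 75.3% of the 279 regions with a high OCT:SOX match were bound before Dox, against 5.69% of regions with none. The regions bound before Dox were also farther from start sites, at a median of 32259 bp, than ectopic ones at 12814 bp and those with no PTF at 14161 bp.

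At regions bound before Dox, GATA6 was high at 8 h and fell with the PTFs. There, the OCT4 medians were 2.89, 3.46, 2.08, 2.30, 2.09, 0.798 and 0.533 RPM from before Dox through day 4 to XEN cells. SOX2 medians were 3.47, 3.83, 3.05, 1.89, 2.05, 0.655 and 0.525 RPM. GATA6 medians were 0.653, 4.0, 2.49, 1.76, 1.35, 0.884 and 0.602 RPM. At 8 h the GATA6 median of these regions was above that of Early&Constant sites, also per kb, at 6.03 against 5.1 RPM per kb. Of the 904 regions, 72.0% were Transient, 24.9% Early&Constant and 3.10% Late.

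Among the 651 Transient sites bound by PTFs before Dox, OCT4 was at least 2-fold lower at day 4 at 562 (86.3%). SOX2 was at least 2-fold lower at 610 (93.7%), and none was 2-fold higher for either factor. Over all regions, 19.4% were at least 2-fold lower in OCT4 and 24.1% in SOX2. These 651 sites were chosen by PTF peaks before Dox, so their OCT4 and SOX2 falls are a description. The SOX17 signal was at least 2-fold lower at 332 of them (51.0%, against 8.72% of all regions) and higher at 20 (3.07%, against 44.5%). Before Dox this signal followed that of SOX2 across open poised enhancers. The choice by PTF peaks therefore bears on the SOX17 fall as well, which is also a description. GATA6 from 8 h to day 4 was at least 2-fold lower at 589 (90.5%, against 34.8%), though the Transient class was built from GATA6. The 1539 Transient sites with no PTF had a GATA6 median of 1.87 RPM at 8 h and 0.591 at day 4, and an OCT4 median of 0.738 RPM before Dox and 0.463 at day 4. The commonest combination of classes was Transient with neither a PTF nor SOX17 peak, with 1414 regions (35.3%).

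Ectopic PTF regions differed in their course from those bound before Dox. Their OCT4 medians were 1.31, 1.32, 1.33, 2.37, 2.46, 1.89 and 0.667 RPM, with the rise at day 1. Their SOX2 medians moved less, at 1.51, 1.59, 1.75, 1.70, 1.80, 1.73 and 0.745 RPM. GATA6 medians were 0.653, 2.43, 3.18, 3.07, 2.74, 2.69 and 1.91 RPM, and those of SOX17 0.974, 0.895, 1.05, 2.36, 2.68, 2.65 and 1.40 RPM. The OCT4 and SOX17 medians thus rose between 16 h and day 1, and that of GATA6 by 8 h. Over all regions the OCT4 median also rose between 16 h and day 1, from 0.681 to 0.963 RPM. That of SOX17 went from 0.55 to 0.888 RPM, so this step was not particular to ectopic regions. From before Dox to day 2, OCT4 was at least 2-fold higher at 198 of the 520 (38.1%) and lower at none, while over all open poised enhancers 344 were higher (8.58%, against 14.6% of all regions) and 319 lower (7.96%, against 4.86%). Ectopic regions were SOX17-bound in 71.9% of cases and Early&Constant in 47.5%, and 221 were both.

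**Figure D3:**
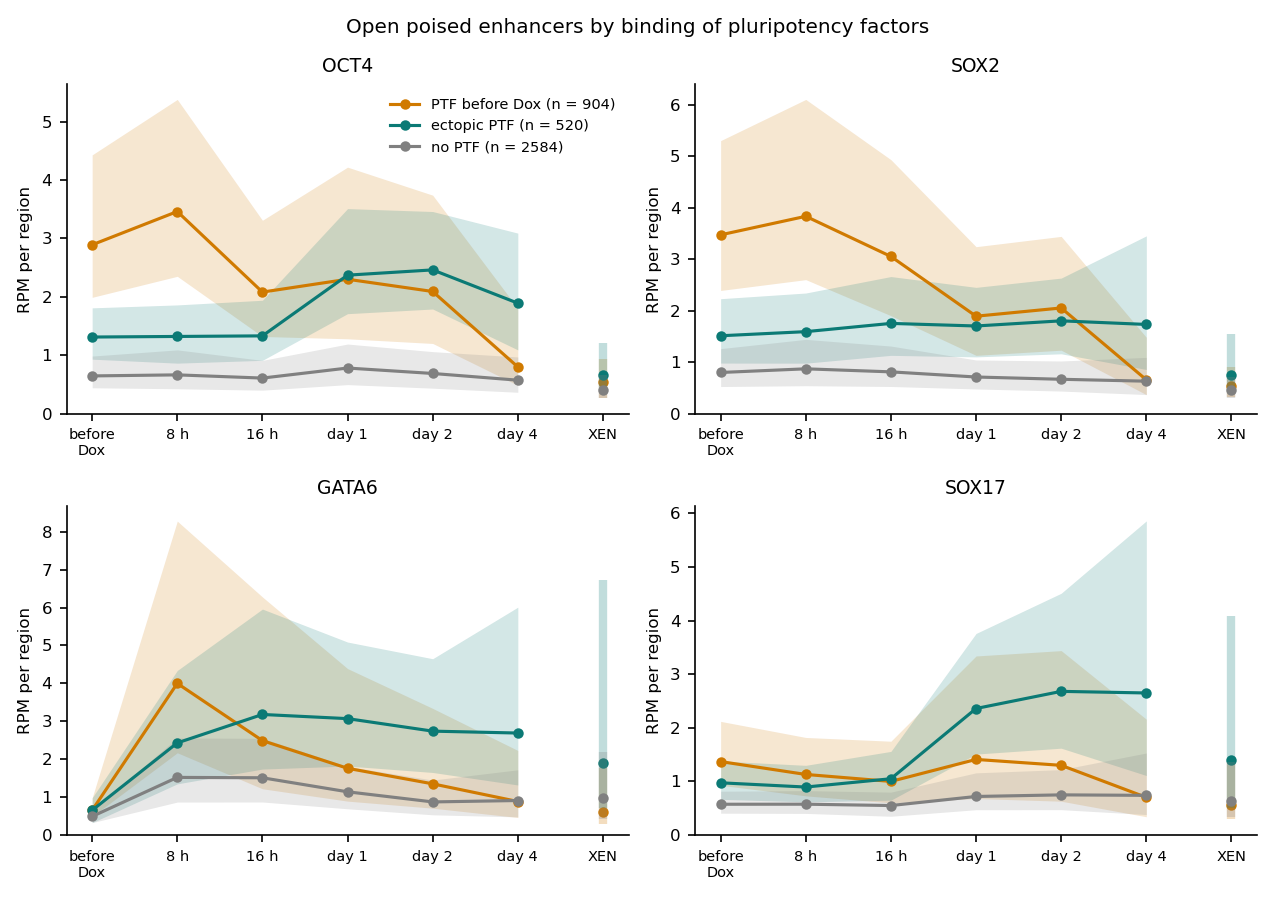
Median signal per region in RPM (y axis, linear from 0) for OCT4, SOX2, GATA6 and SOX17 by condition (x axis, not to scale), at open poised enhancers bound by PTFs before Dox (orange, 904), with ectopic PTF binding (teal, 520) and with no PTF peak (grey, 2584). Shaded bands and the bars at XEN span the quartiles over regions; GATA6 peaks at 8 h where PTFs were bound before Dox, and OCT4 at ectopic regions is highest at day 2, at 2.46 RPM.

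ESRRB levels differed with the ESRRB match. At the 344 open poised enhancers with a high ESRRB match, the ESRRB medians up to day 4 were 2.51, 2.75, 2.75, 1.89, 1.23 and 0.520 RPM. At the 2609 regions without a match it was 0.639, 0.659, 0.689, 0.561, 0.439 and 0.376 RPM. ESRRB was at least 2-fold lower at day 4 at 85.2% of the former and 23.5% of the latter. GATA6 at 8 h was 2.89 RPM with a high ESRRB match and 1.68 without, with median widths of 614 and 442 bp.

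Of the 212 accessible open poised enhancers, the more open ones before Dox, 60.4% were bound by PTFs before Dox, against 20.4% of the 3796 moderate ones, and 80.2% were Transient, against 58.2%. High or mid GATA6 matches were present in 22.2% against 51.3%, and high or mid OCT:SOX matches in 33.5% against 17.1%. SOX2 went from 2.65 RPM before Dox to 0.509 at day 4 in the accessible regions, and from 1.12 to 0.708 in the moderate ones. OCT4 went from 1.95 to 0.566 RPM and from 0.906 to 0.699 RPM over the same times. SOX17 had a median change to day 4 of -0.93 on the log2 scale in accessible and 0.26 in moderate regions.

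Across the 4008 regions, the Spearman's rho between GATA6 at 8 h and in XEN cells was 0.0862, or -0.349 per kb, and that between day 4 and XEN cells 0.829, or 0.804 per kb. GATA6 at 8 h followed OCT4 before Dox (0.79, and 0.57 per kb), and GATA6 at day 4 followed SOX17 at day 4 (0.909, and 0.893 per kb). These are descriptions across regions, which share libraries, width and GC content. GATA6 at 8 h also had a rho of 0.706 with input before Dox, which was -0.0559 per kb, so values per region carry width.

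In the siRNA cells, the GATA6 median at open poised enhancers was 1.33 RPM with control siRNA and 1.28 with Oct4 siRNA, and 1.64 and 1.68 over all regions. At least 2-fold lower were 198 open poised enhancers (4.94%, against 5.28% of all regions), and at least 2-fold higher 173 (4.32%, against 7.77%), so most were under the 2-fold limit. The median change on the log2 scale was -0.27 at regions bound by PTFs before Dox, -0.11 at ectopic regions and 0.01 with no PTF. By GATA6 class it was -0.25 in Transient, 0.01 in Early&Constant and 0.41 in Late sites, where 133 (15.9%) were at least 2-fold higher. Transient and Late sites of the whole table had medians of -0.31 and 0.48. The loss of OCT4 protein itself was not analysed here.

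The SOX17 signal was shifted upward over the whole table with Oct4 siRNA. Its median went from 0.699 to 1.01 RPM at open poised enhancers and from 0.812 to 1.29 RPM over all regions. Each of these columns pools 2 libraries, and input of the siRNA cells has no column. Binding and efficiency of pull-down therefore cannot be told apart in this shift. The paper reports that GATA6 and SOX17 binding fell at some regions upon Oct4 knock-down and increased at others. The median change was 0.42 on the log2 scale, against 0.52 over all regions, and relative to that shift it was -0.10. At least 2-fold higher were 583 (14.5%, against 20.8%) and at least 2-fold lower 26 (0.649%, against 0.441%). Late sites had a median of 0.77, Early&Constant 0.57 and Transient 0.27, of which only the Transient median lay below that of all regions.

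**Figure D4:**
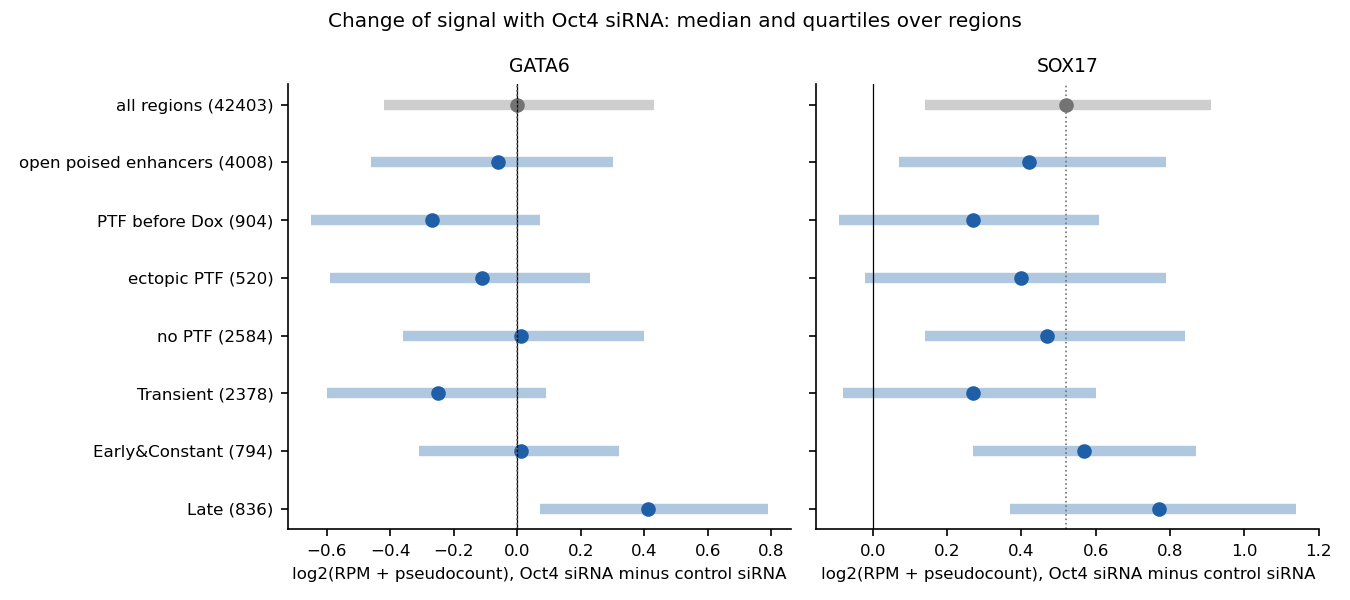
Change per region in log2(RPM + pseudocount), Oct4 siRNA minus control siRNA at 48 h of Dox (x axis), for GATA6 and SOX17, in all regions (grey) and in open poised enhancers and their classes (blue), with the number of regions in brackets. Points are medians and bars the quartiles over regions, the dotted line is the median of all regions, and Late sites have the highest median of the classes in both assays.

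At single regions with the largest siRNA differences, chosen among those with at least 2 RPM in the higher column, the GATA6 level near Gpnmb was 7.41 RPM with control and 1.49 with Oct4 siRNA. Near Rpl38, in the region with the high OCT:SOX match shown above, it was 2.29 and 0.367 RPM, and near Arhgef10 4.65 and 1.15 RPM. These 3 Transient regions were bound by PTFs before Dox, and OCT4 there was 4.22, 4.05 and 3.72 RPM before Dox and 1.07, 0.948 and 0.927 at day 4. In the other direction, GATA6 was 0.301 RPM with control and 2.87 with Oct4 siRNA near Cmtm4, 1.39 and 7.01 near Bbs5, and 0.796 and 4.20 near Gm10260. All 3 of these were Late sites, SOX17-bound and without a PTF peak. SOX17 near Cmtm4 was 0.346 and 4.56 RPM, and in the time course it was 0.391 RPM before Dox, between 0.150 and 0.346 until day 2, 5.82 at day 4 and 4.30 in XEN cells.

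Among open poised enhancers within 50 kb of a start site, 30 lay nearest to one of 18 of the 40 genes of a PrE list, 21 to 16 of the 34 genes of a pluripotency list, 74 to 51 of 129 developmental transcription factor genes and 57 to 37 of 83 signalling genes. The lists share some genes, so their counts overlap. Otx2 is in the PrE and pluripotency lists, Pdgfra in the PrE and signalling lists, and Tbx3 in the pluripotency and developmental lists. Open poised enhancers were 13.5%, 12.1%, 28.0% and 21.0% of all GATA6 regions near the genes of each list, against 10.9% near any gene. The median change of GATA6 from 8 h to day 4 was 0.80 near PrE genes, -0.77 near pluripotency genes, -1.07 near developmental transcription factor genes and -1.24 near signalling genes, against -0.75 for the 3046 open poised enhancers near any gene. SOX17 at day 4 was at least 2-fold above its level before Dox at 19 of 30 near PrE genes and 2-fold below at none, at 8 and 2 of 21 near pluripotency genes, 18 and 10 of 74 near developmental factor genes and 11 and 12 of 57 near signalling genes. Near any gene these counts were 974 and 312 of 3046, so that the pluripotency and developmental factor lists lay near this background. OCT4 at day 4 was at least 2-fold higher at 14 and lower at 1 near PrE genes, 4 and 6 near pluripotency genes, 5 and 15 near developmental factor genes and 3 and 17 near signalling genes, against 373 and 588 of 3046 near any gene. Transient sites were 12 of the 30 regions near PrE genes, 14 of 21 near pluripotency genes, 56 of 74 near developmental factor genes and 34 of 57 near signalling genes, against 1723 of 3046 near any gene. In all, 2414 genes had an open poised enhancer nearest to them within 50 kb, 1936 of them a single one, and Aff1, Rnf220 and Sipa1l3 had the most, with 6 each.

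Near PrE genes, an Early&Constant region in an intron of Klb (chr5:65367250-65368843), which encodes the co-receptor of endocrine FGFs, had GATA6 levels of 1.14, 7.71, 9.41, 11.4, 17.1, 22.3 and 19.6 RPM from before Dox through day 4 to XEN cells. OCT4 there was 3.04, 3.0, 3.12, 6.49, 11.3, 9.44 and 1.47 RPM, and SOX17 1.95, 1.45, 2.75, 8.66, 12.2, 15.8 and 5.71 RPM. All 3 factors were several times their level before Dox at day 2 and day 4. The region in an intron of Gata6, 539 bp from its start site, had GATA6 levels of 2.61, 11.5, 16.8, 9.69, 10.4, 14.3 and 19.7 RPM. A region in an intron of Sparc, a secreted matrix protein, went from 1.14 RPM before Dox to 12.2 at day 4, and 1 beside Sox7, a SOX factor of endoderm, from 0.653 to 9.07 RPM. By contrast, GATA6 upstream of Amn, a partner of cubilin in endocytosis, reached 13.7 RPM at 16 h and was 3.07 at day 4 and 1.78 in XEN cells.

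Near pluripotency genes, the region 32578 bp from Klf5 (chr14:99330342-99332644), a Krüppel-like factor of naive pluripotency, had GATA6 levels of 1.63, 36.6, 32.7, 27.1, 28.9, 21.3 and 20.5 RPM. OCT4 was 8.60 RPM there before Dox and 24.7 at day 2, and ESRRB 12.6 before Dox, 22.1 at 16 h and 2.19 at day 4, so that of the 5 factors only ESRRB was below its first level at day 4. The region 3794 bp from Id1, a target of BMP signals (chr2:152739124-152740416), had GATA6 at 0.980, 3.05, 4.94, 7.72, 8.18, 18.2 and 18.4 RPM, with SOX17 at 17.1 RPM at day 4. Esrrb, Klf2 and Utf1 had Transient regions. GATA6 in an intron of Esrrb was 7.85 RPM at 8 h and 0.561 at day 4, and upstream of Klf2 8.44 and 1.61. In the region 12390 bp from Utf1, which holds no GATA6 match, it was 9.53 RPM at 8 h, 7.11 at day 2 and 2.50 at day 4. In an Early&Constant region in an intron of Otx2, 182 bp from its start site, GATA6 went from 7.67 RPM at 8 h to 2.14 at 16 h, and SOX2 from 10.4 to 5.01.

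Developmental transcription factor genes had regions of several courses. A region in an intron of Runx1, a factor of blood formation, had GATA6 levels of 1.63, 24.4, 23.0, 16.4, 17.4, 25.4 and 32.8 RPM. Upstream of Gata2, another GATA factor, they were 1.96, 20.1, 22.9, 13.1, 12.7, 15.8 and 28.0 RPM, in a region with 8 GATA6 matches. Upstream of Hes1, a target of Notch, GATA6 was 4.0 RPM at 8 h and 21.3 in XEN cells, and SOX17 was 2.07 and 23.4. These regions kept or gained GATA6, as did the regions near Snai1 and Nkx6-2, at 16.9 and 12.9 RPM in XEN cells. They were named for their highest GATA6 level at any time or in XEN cells, and do not stand for the list. Of its 74 regions, 56 were Transient. From 8 h to day 4, GATA6 was at least 2-fold lower at 37 and higher at 6 of them. The region 2708 bp from the start site of Neurog3, a factor of endocrine cells, and in an intron of Fam241b, was Transient, with GATA6 from 8 h to XEN cells at 12.8, 12, 6.23, 2.40, 1.46 and 0.540 RPM. OCT4 there was 4.54 RPM before Dox and 0.870 at day 4.

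Near signalling genes, 34 of 57 regions were Transient, a share close to that near any gene. A region in an intron of Ptch1, the Hedgehog receptor (chr13:63568848-63569714), had GATA6 levels of 0.980, 20.1, 9.78, 4.04, 1.40, 0.757 and 0.507 RPM, although it holds no GATA6 match. OCT4 there was 8.64, 11.9, 7.02, 5.29, 2.96, 0.705 and 1.20 RPM, and SOX2 7.06, 10.3, 5.29, 3.18, 2.11, 0.516 and 0.631 RPM. The 3 factors were highest at 8 h and lower at each later time up to day 4. Dll1, a Notch ligand, had a region 4860 bp upstream (chr17:15380351-15381463) with OCT4 at 14.8, 15.0, 17.5, 21.2, 26.2, 10.3 and 0.400 RPM and GATA6 at 1.31, 14.6, 16.5, 8.72, 7.99, 4.31 and 3.78 RPM. Its OCT:SOX match, shown above, lay 1 bp from the GATA6 summit. In an intron of Ntn1, a guidance cue, GATA6 was 25.2 RPM at 8 h and 5.54 at day 4, and at Wnt3, a Wnt ligand, 10.4 and 2.65, while at Fgf8 and Fgf3, ligands of FGF receptors, it was 10.5 and 8.39, and 6.23 and 5.26.

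**Figure D5:**
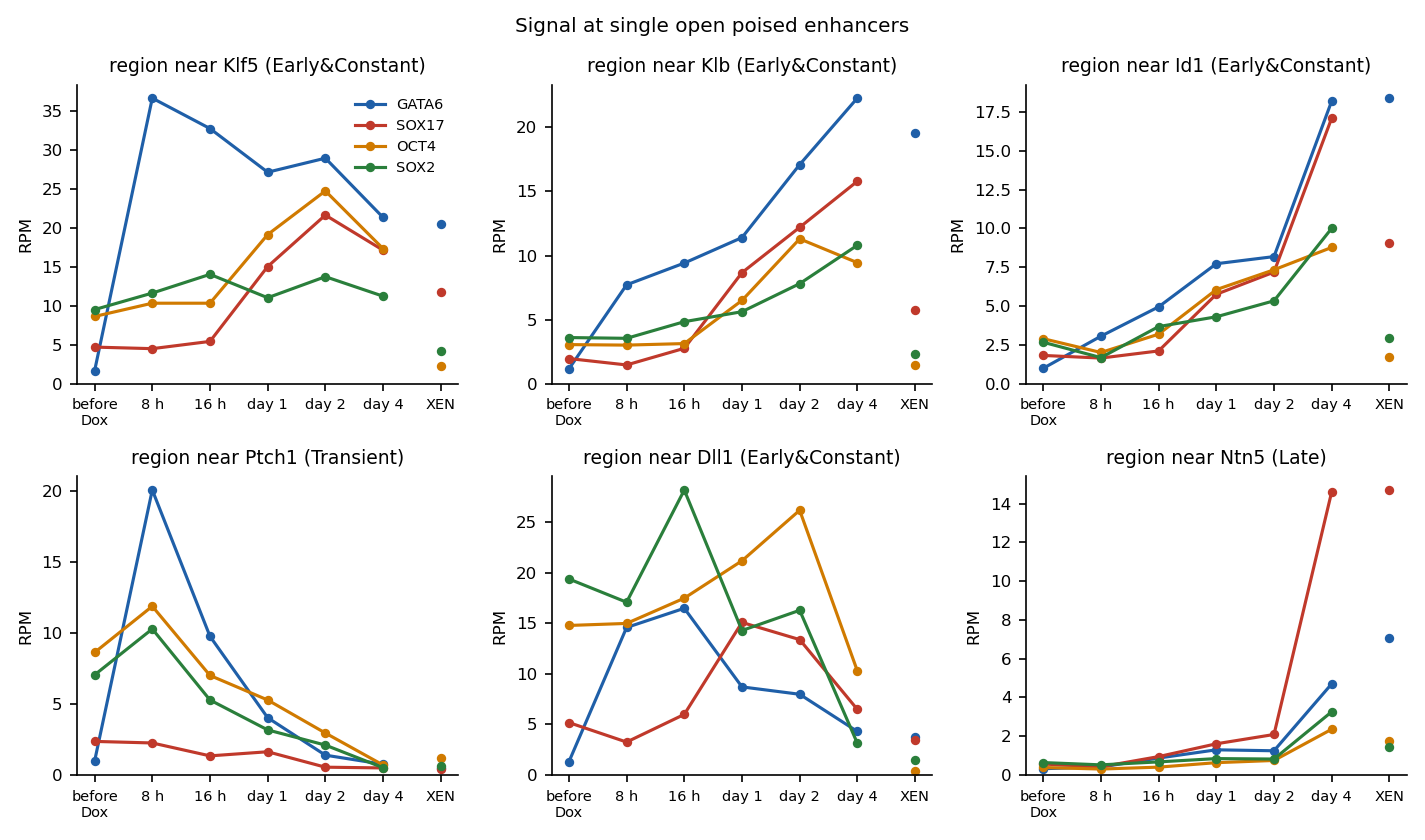
Signal in RPM (y axis, linear from 0) of GATA6 (blue), SOX17 (red), OCT4 (orange) and SOX2 (green) by condition (x axis, not to scale) at the open poised enhancers near Klf5, Klb, Id1, Ptch1, Dll1 and Ntn5, each point being the single pooled value of a condition. GATA6 near Ptch1 is 20.1 RPM at 8 h but 0.757 at day 4, and SOX17 near Ntn5 reaches 14.6 RPM at day 4.

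The highest GATA6 level at 8 h was 49.7 RPM in a region 65911 bp from Aldh1a3 (chr7:66491018-66494176), which makes retinoic acid. Next was 48.1 RPM in an intron of Dnah2, 56689 bp from the start site of Kdm6b, an H3K27 demethylase. A region in an intron of Zfpm1, a cofactor of GATA factors, had 47.1 RPM. At day 4 these 3 regions had 7.69, 14.3 and 10.9 RPM. At day 4 and in XEN cells the highest were the regions near Tmem173, near Rassf3 and 60703 bp from Atp6v1b2. They had 37.2, 36.1 and 35.3 RPM at day 4 and 45.6, 54.3 and 47.7 in XEN cells. These 6 regions were 1897 to 3553 bp wide, against a median of 490 bp.

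The largest GATA6 falls from 8 h to day 4 were at the region 200280 bp from Tle3 (chr9:61573479-61574718), with 24.1, 8.51, 4.73, 1.76 and 0.857 RPM from 8 h to day 4, at the Ptch1 region and near Rnd3, with 14.3 RPM at 8 h and 0.574 at day 4. Each was bound by PTFs before Dox. The largest rises were near Ptcra (chr17:46767395-46768301), from 1.13 RPM at 8 h to 15.7 at day 4, near Muc6, from 0.455 to 6.22, and 77151 bp from Foxa2, a pioneer factor of endoderm, from 1.08 to 12.4. SOX17 at these 3 regions rose as well, to 24.0, 8.18 and 20.3 RPM at day 4 from 0.857, 0.794 and 0.865 before Dox. The other large SOX17 rises were near Tex2, to 23.3 RPM, and Ntn5, to 14.6. The region near Ntn5, whose SOX17 match is shown above, had SOX17 levels of 0.566, 0.425, 0.95, 1.61, 2.09, 14.6 and 14.7 RPM, and GATA6 levels of 0.327, 0.413, 0.875, 1.3, 1.25, 4.7 and 7.07 RPM. Most of the gain of both factors came after day 2.

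The 3 largest falls of the SOX17 signal were at PTF-bound Transient sites. The regions 102571 bp from Zfp36l1, near Immp2l and 177542 bp from Sox9 had SOX17 levels of 4.13, 3.23 and 2.32 RPM before Dox and 0.317, 0.282 and 0.159 at day 4. OCT4 before Dox was 24.2, 7.41 and 10.5 RPM there, and 1.32, 0.606 and 0.527 at day 4. For OCT4 from before Dox to day 2, the largest falls were near Cachd1, Gna14 and Abcd4, from 3.38, 3.34 and 3.55 to 0.45, 0.481 and 0.553 RPM. The largest rises were near Smim15, Ntrk2 and Btnl10, from 0.748, 0.402 and 1.29 to 4.73, 2.86 and 7.20 RPM. SOX17 at day 2 was 7.73, 2.96 and 11.5 RPM at these last 3 regions, which were all of the ectopic PTF and SOX17-bound classes. They were chosen by their OCT4 rise, so their ectopic class follows in part from that choice. Of all open poised enhancers, 13% were ectopic and 34.7% SOX17-bound.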

How the data were processed

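ChIP-seq for GATA6, SOX17, OCT4, SOX2, ESRRB and input was analysed in 45 of 47 conditions, from 92 of the 96 libraries. Per the study's methods, replicate libraries of most conditions came from independent chromatin preparations, which the table used here pools. The authors trimmed reads with cutadapt, aligned them to mm10 with Bowtie2, removed duplicates by unique molecular identifiers, called peaks with MACS2 and counted reads on each region scaled to library size, so the deposited values are RPM, pooled over replicates. The deposited motif columns, which the authors made with FIMO, hold the best score, the number of matches and a class. Classes of GATA6 course, PTF and SOX17 binding, histone state and accessibility are the authors' own and were used as deposited. Their DESeq2 outcome for the siRNA comparison and 14 columns of per-sample accessibility and histone values were not used.

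Medians over regions, changes of log2(RPM + pseudocount), with the pseudocount at percentile 5 of an assay's non-zero values, and counts past 2-fold were computed with Python 3.11.15, numpy 2.4.6, pandas 2.3.3 and scipy 1.17.1, and checked on simulated data. Calls past 2-fold carry no test, since replicates share a column of this table, and the reads were not analysed here. Region starts and ends were read as inclusive and counted from 1, since motif matches in the table stop exactly at both. Distances use GENCODE M21, and sequences were read from mm10 (GRCm38, RefSeq) with pysam 0.24.0 and samtools 1.23.1. Of the high or mid GATA6 matches, 12 cut at a region's edge were left out of the base counts.

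Regions named were, for each gene list, the 6 genes with the highest GATA6 member within 50 kb, the 3 members highest in GATA6 at 8 h, day 4 and in XEN cells, and the 3 largest rises and falls among members with at least 2 RPM. A region under these rules is not reported here. The members, gene lists and rules were chosen with earlier results of these data known. Alternatives were pseudocounts 10 times larger or smaller, means, members with a high maximum, accessibility or start-site subsets, ratios to input, other motif classes and changes relative to all regions.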

Additional observations from a re-analysis of the deposited data

How the results depend on the processing

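Of 93 alternative values, 35 lay within the 95% interval over regions of the reported value, 53 outside it in the same direction, larger or smaller, and 5 turned direction. No paired analysis was possible because the table used here pools the replicates of a condition in 1 column, and for the same reason no replicate could be left out of these values. Values follow the order GATA6 from before Dox to 8 h, GATA6 from 8 h to day 4, SOX17 to day 4, OCT4 to day 2, OCT4 to day 4, SOX2 to day 4, ESRRB to day 4, GATA6 with Oct4 siRNA and SOX17 with Oct4 siRNA. With a 10 times larger pseudocount the medians were 0.67, -0.42, 0.07, 0.02, -0.08, -0.15, -0.23, -0.02 and 0.15. With one 10 times smaller they were 2.0, -1.06 and 0.27, then -0.29, -0.55 and -0.90 for OCT4, SOX2 and ESRRB to day 4, and 0.52 for SOX17 with siRNA. In members with a high maximum they were 2.28, -0.85, 1.31, 0.13, -0.51, -0.96, -1.02, -0.11 and 0.56. As means they were -0.71 for GATA6 from 8 h, and 0.36, -0.33, -0.53 and -0.84 for SOX17, OCT4, SOX2 and ESRRB to day 4. As ratios to input they were 1.86, -1.03, 0.34, 0.21, -0.17 and -0.37 up to SOX2. In accessible members they were -1.55 for GATA6 from 8 h, then -0.93 for SOX17 and -0.35 for OCT4 to day 2, both turned, -1.56, -2.24, -1.21, -0.16 and 0.14. Relative to all regions, an alternative chosen after seeing the data except for siRNA, they were 0.28 for GATA6 to 8 h, -0.58 for SOX17 and -0.16 for OCT4 to day 2, both turned, -0.39, -0.55 and -0.31 to day 4, and -0.10, turned, for SOX17 with siRNA. In accessible members the Transient share was 80.2%, the SOX17-bound share 23.1%, the share bound by PTFs before Dox 60.4% (20.4% in moderate ones) and that with a high or mid GATA6 match 22.2%. The last was 21.7% for the high class alone and 84.0% for any match. The cause of these moves was not tested, and depth limits GATA6 before Dox, where 16.9% of members were at the lowest value of the column.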

Other observations

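On chromosome X, 6 of 1238 GATA6 regions were open poised enhancers (0.485%), against 4002 of 41164 on the autosomes (9.72%). All poised enhancers there numbered 10, against 6174 on the autosomes, and regions that were accessible or moderate before Dox were 24.8% against 39.1%. Median input before Dox was 0.271 RPM on chromosome X and 0.455 on the autosomes, while GATA6 at day 4 was 1.17 and 1.30 RPM.

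Among open poised enhancers inside coding exons, 2 stood far above the others in single columns. The region in a coding exon of Esrra, an orphan nuclear receptor related to ESRRB (chr19:6919649-6920555), had 96.4 RPM of GATA6 before Dox, where the next open poised enhancer had 8.49, and 3.48 RPM at 8 h. OCT4 and SOX2 in XEN cells were 136 and 63.1 RPM there, against 46.5 and 19.6 at the next. These were the highest values of those 3 columns over all 42403 regions. The region in a coding exon of Gata6, 2404 bp from the start site, had 18.1 RPM of ESRRB at day 4, where the next open poised enhancer had 3.99, and 7.55 RPM of input at day 1. Both regions were chosen after their values were seen.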
